A study of Sus scrofa with 22 samples.

Results

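The 7 genes MX1, MX2, ISG15, OASL, RSAD2, IFIH1 and IRF9, which interferon switches on in antiviral defence, were followed in the small intestine of 22 piglets from 2 chemotherapy experiments. The genes were taken by name, through the accession of each array probe, and each was represented by its brightest probe. They are 7 of the 24766 genes tested on the arrays, and 13 probes in all carry their names. The genes had been picked because earlier results of these data showed their drug effects and their gap between the experiments, so those differences are given for them as a description. Where the text counts how many of them passed limma's threshold, the count stands beside that of all genes and nothing is read from it.

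The piglets were 3-day-old SPF crossbreds of Large White and Danish Landrace that had suckled their mother, were housed singly and all carried an orogastric tube and a jugular catheter. In the first experiment 6 piglets received doxorubicin (DOX), a topoisomerase II inhibitor given as a single dose, and 6 were untreated. In the second, 5 received busulfan plus cyclophosphamide (BUCY), a pair of DNA-alkylating drugs, and 5 were untreated. The sources used here give neither the segment of intestine nor the drug doses or the interval from treatment to sampling. Each array compared the RNA of 1 piglet, labelled with Cy5, with a pool of all samples, labelled with Cy3. A value is the log2 ratio of the 2 signals, so 0 is the level of the pool and a difference of 1 is a 2-fold difference. The 2 experiments were separate studies, so whatever differed between them besides the drugs cannot be told apart in a comparison of their piglets.

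Cells that sense viral RNA or DNA make interferons, which bind receptors on the same and on neighbouring cells. The receptors of type I and type III interferon activate signalling proteins, STAT2 among them, that join IRF9 in the transcription factor that switches on the antiviral genes. In the intestine both the epithelium and the immune cells of the lamina propria respond in this way.

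In Cy5, 59.7% to 72.5% of the probes of each array were well above background. The brightest probe of each of the 7 genes was so on all 22 arrays, with no saturated spot, and precision is limited by how many arrays there are. In BUCY treated piglet 3 the Cy5 signal still came down to 114 for RSAD2, 136.5 for IFIH1 and 212.5 for MX2. The backgrounds of these spots were 62, 53 and 44. All 8 measured markers of the small intestinal epithelium were above background on every array. Some arrays need naming before the results. DOX treated piglet 6 was the lowest of its group for 5 of the 7 genes. BUCY treated piglets 2 and 3, which stood apart in an earlier treatment of these data, were the lowest of theirs for IFIH1 and IRF9. The array of BUCY treated piglet 3 was the dimmest of the 22 in Cy5. It had the lowest median signal, 88.5 in a range up to 211, and the lowest share of probes above background, 59.7%. The titles of 6 arrays carry a suffix whose meaning is not given. On the array of BUCY untreated piglet 3 the ISG15 spot was dim in both colours, at 202 in Cy5 and 1115 in Cy3, where the other arrays read 19969 to 417126 and 55630 to 229711. Results that rest on these arrays are given with and without them.

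MX1 encodes a dynamin-like GTPase of the cytoplasm that blocks influenza and other RNA viruses. In the untreated piglets of the DOX experiment its log2 ratio ran from 0.58 to 1.09 with a median of 0.76, and in the DOX treated piglets from -0.50 to 0.87 with a median of 0.69. In the untreated piglets of the BUCY experiment it was -2.26, -1.85, -2.23, -2.37 and -2.56, and in the BUCY treated piglets -3.13, -2.11, -1.81, -2.40 and -2.44. Every piglet of the BUCY experiment lay below every piglet of the DOX experiment, while treated and untreated piglets overlapped within each experiment. MX2 is the paralog of MX1, and the 2 genes lie on the same chromosome with 1 annotated gene between them, so their probes could share signal. Its log2 ratio was 0.42 to 0.76 (median 0.63) in DOX untreated and -0.34 to 1.02 (median 0.86) in DOX treated piglets. In BUCY untreated piglets it was -3.44, -2.91, -3.61, -3.90 and -3.65, and in BUCY treated piglets -3.93, -3.11, -2.71, -3.93 and -3.11. The pattern matched that of MX1, with the 2 experiments apart and the treatments overlapping.

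ISG15 encodes a ubiquitin-like protein that is attached to other proteins in infected cells and is also secreted. Its log2 ratio was 0.82 to 1.42 (median 0.94) in DOX untreated and -0.58 to 1.40 (median 0.86) in DOX treated piglets. In BUCY untreated piglets it was -2.66, -2.48, -3.15, -2.70 and -3.00, the third of them from the dim spot. In BUCY treated piglets it was -3.34, -2.42, -1.73, -2.67 and -2.50. Leaving out the dim spot moved the mean of the BUCY untreated group from -2.80 ± 0.27 (SD, n = 5) to -2.71 ± 0.22 (SD, n = 4). OASL encodes a protein related to the oligoadenylate synthetases that has no synthetase activity of its own in humans and strengthens RNA sensing by RIG-I. It ran from 0.20 to 0.80 (median 0.54) in DOX untreated and from -0.34 to 0.81 (median 0.58) in DOX treated piglets. In BUCY untreated piglets OASL was -3.13, -3.34, -4.004, -3.05 and -2.87, and in BUCY treated piglets -3.67, -2.74, -2.45, -3.04 and -2.93. For both genes the treatments overlapped and the experiments did not.

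RSAD2 encodes viperin, an enzyme of the endoplasmic reticulum and lipid droplets that makes a chain-terminating nucleotide against viral polymerases. Its log2 ratio was -0.27 to 0.30 (median 0.14) in DOX untreated and -1.33 to 0.69 (median 0.19) in DOX treated piglets. In BUCY untreated piglets it was -3.08, -2.27, -2.62, -4.04 and -4.25, and in BUCY treated piglets -5.22, -5.09, -4.42, -3.67 and -4.56. RSAD2 held the lowest single values of the 7 genes. The BUCY untreated piglets fell into 3 higher and 2 lower ones, and the lower 2 overlapped with the treated piglets.

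IFIH1 encodes MDA5, a helicase that senses long double-stranded RNA, and is itself induced by interferon. Its log2 ratio was 0.28 to 0.67 (median 0.47) in DOX untreated and -0.50 to 0.76 (median 0.03) in DOX treated piglets. In BUCY untreated piglets it was -1.10, -0.83, -0.55, -1.93 and -1.35, and in BUCY treated piglets -1.68, -3.30, -3.60, -2.09 and -2.40. All but 1 of the BUCY treated piglets lay below all untreated ones. IRF9, the DNA-binding subunit of the factor it forms with STAT2, had the narrowest range of the 7. It ran from -0.02 to 0.64 (median 0.45) in DOX untreated and from 0.04 to 0.60 (median 0.24) in DOX treated piglets. In BUCY untreated piglets IRF9 was -0.05, 0.07, -0.19, -0.41 and 0.00, and in BUCY treated piglets -0.72, -1.30, -1.48, -0.54 and -0.42. IRF9 was the only gene of the 7 whose BUCY treated and untreated piglets did not overlap, and the only one whose untreated piglets of the 2 experiments did overlap.

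**Figure D1:**
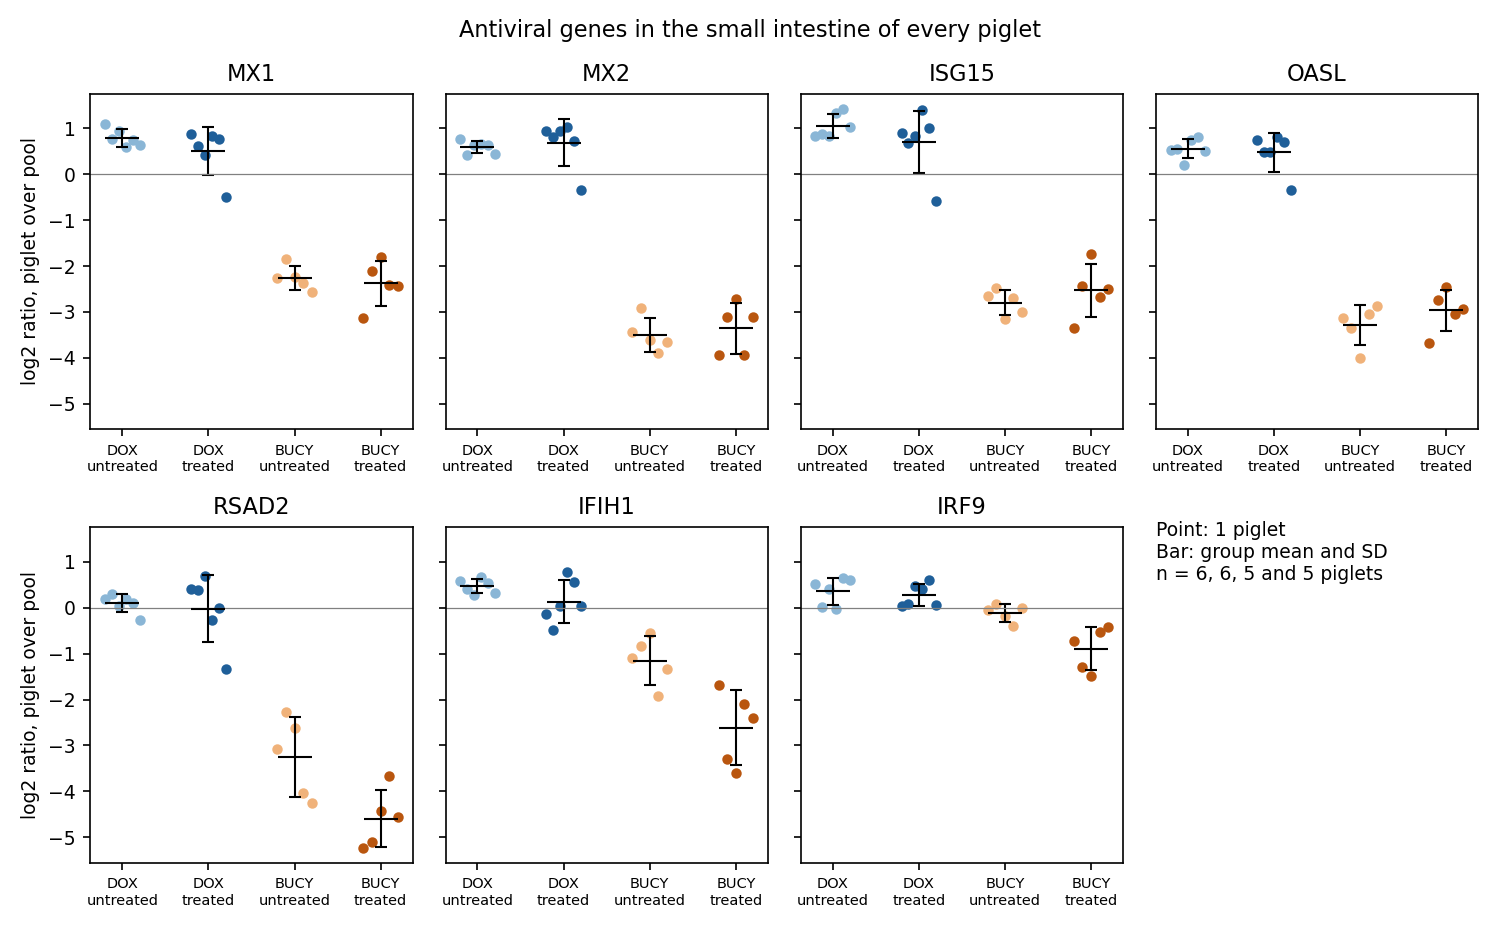
The log2 ratio of each piglet to the pool (vertical axis) is plotted for the 7 genes by group, with points for piglets and bars for the group mean and SD (n = 6, 6, 5 and 5). For MX1, MX2, ISG15, OASL and RSAD2 all 10 piglets of the BUCY experiment lie below all 12 of the DOX experiment, and 1 DOX treated piglet lies below the other 5.

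The comparison of untreated piglets asks how far the 2 experiments differed in piglets given neither drug. All 7 genes were lower in the untreated piglets of the BUCY experiment, and the difference spanned 1.39-fold for IRF9 to 17.1-fold for MX2. MX2 stood at -3.50 ± 0.37 (SD, n = 5) against 0.59 ± 0.13 (SD, n = 6), a log2 difference of -4.09 (SE 0.236). ISG15 differed by -3.84 (SE 0.274), OASL by -3.83 (SE 0.220), RSAD2 by -3.35 (SE 0.358) and MX1 by -3.04 (SE 0.222) on the log2 scale. These 5 genes took ranks 2, 3, 4, 5 and 9 among all genes tested when ordered from the most negative difference. IFIH1 followed at -1.62 (SE 0.294), and IRF9, at -0.12 ± 0.19 (SD, n = 5) against 0.36 ± 0.29 (SD, n = 6), differed by -0.47 (SE 0.180).

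Of the 7 genes, 6 passed adjusted p under 0.05 in that direction in limma's fit over all genes, a threshold passed by 12.2% of all genes, and the same 6 had no overlap between the groups, as had 9.02% of all genes. Since the genes were chosen on this gap, nothing is read from those counts. Their median difference was -3.35, beside a median of 0.03 over all genes. In bulk tissue, fewer cells of a type and less RNA per cell cannot be told apart. All 6 measured markers of dividing cells were called lower in the same comparison, with a mean log2 ratio per piglet of -1.72 to -0.99 in the BUCY and 0.21 to 0.90 in the DOX untreated piglets. Of 10 macrophage and monocyte markers 6 were called lower, with ranges of -0.94 to -0.38 and -0.20 to 0.26, and SIGLEC1 was not well above background in any BUCY untreated piglet. Of 3 dendritic cell markers, plasmacytoid ones included, 2 were called lower (-1.05 to -0.53 against 0.13 to 0.67), and of 3 B and plasma cell markers 2 (-0.41 to -0.24 against -0.15 to 0.32). Of 14 T and NK cell markers 2, and of 9 MHC class II genes 0, were called lower. The part of these cell types in the gap was not tested.

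Piglets of both experiments shared slides and scan days, so the gap could be read within them. Within the 2 slides that held untreated piglets of both experiments it was -3.81 and -4.19 for MX2, and -2.99 and -3.25 for MX1, with 3 untreated piglets on each. The gap of RSAD2 was -2.72 on the first and -4.17 on the second of these slides, and that of IRF9 -0.39 and -0.62. Each gene kept the direction of its gap within every such slide and scan day.

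The comparison of treated piglets repeats the gap in animals that the untreated comparison did not use. All 7 genes were lower in the BUCY treated than in the DOX treated piglets, all without overlap, from 2.24-fold for IRF9 to 23.8-fold for RSAD2. RSAD2 stood at -4.59 ± 0.62 (SD, n = 5) against -0.02 ± 0.72 (SD, n = 6), a log2 difference of -4.57 (SE 0.358). MX2 differed by -4.04 (SE 0.236), OASL by -3.44 (SE 0.220), ISG15 by -3.24 (SE 0.274) and MX1 by -2.88 (SE 0.222). IFIH1 differed by -2.74 (SE 0.294) and IRF9 by -1.17 (SE 0.180), both further than in the untreated piglets. All 7 passed the threshold in this direction, as did 6.22% of all genes, and 3.34% of all genes had treated groups that did not overlap in this direction. The rule that chose the genes covers this gap too, so these counts are a description. The median of the 7 was -3.24 beside 0.02 over all genes. Of 14 T and NK cell markers 11 were called lower in the same comparison, of 9 MHC class II genes 3, and of 6 markers of dividing cells 0. All 3 dendritic cell markers were called lower (-1.47 to -0.69 against 0.03 to 0.45), 5 of 10 macrophage and monocyte markers (-0.80 to -0.10 against 0.16 to 0.65) and 2 of 3 B and plasma cell markers. Their part in the gap was not tested.

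The DOX comparison asks what the drug did to these genes, and the values of treated and untreated piglets overlapped for all 7, while 1.39% of all genes were lower and 1.22% higher without overlap. Their differences ran from -0.34 for ISG15 (SE 0.261) to 0.09 for MX2 (SE 0.225), with a median of -0.12 beside 0.01 over all genes. None of the 7 passed the threshold in limma's fit, which 0.848% of all genes passed. An unadjusted p under 0.05 was found for 0, and the share of all genes at that level was not counted. MX1 stood at 0.50 ± 0.52 (SD, n = 6) after DOX against 0.79 ± 0.19 (SD, n = 6), and IFIH1 at 0.13 ± 0.46 against 0.46 ± 0.16. The SD among DOX treated piglets was larger than among untreated ones for each gene but IRF9.

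DOX treated piglet 6 lay at the bottom of that spread for 5 genes. It read -0.50 for MX1, -0.34 for MX2, -0.58 for ISG15, -0.34 for OASL and -1.33 for RSAD2, where the other 5 treated piglets lay at 0.41 or above for the first 4 genes. It was the lowest of its group for these 5 genes under every background correction, normalisation and choice of probe tried. For IFIH1 and IRF9 it was within the range of the others, at 0.03 and 0.05. Without it MX2 was 0.88 ± 0.12 (SD, n = 5) after DOX, 0.29 above the untreated mean on the log2 scale. MX1 was then 0.70 ± 0.19, ISG15 0.96 ± 0.27 and OASL 0.64 ± 0.15 (SD, n = 5), which are 0.09 and 0.08 below and 0.09 above their untreated means. RSAD2 was 0.24 ± 0.37 (SD, n = 5), and its difference turned from -0.12 to 0.15. The SD of IFIH1 was 0.46 with that piglet and 0.52 without it.

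By the brightest probe of each gene, 4 genes had BUCY differences of 0.31 or less in size. The other 3 had larger ones, all lower after BUCY. MX1, MX2, ISG15 and OASL differed by -0.12 (SE 0.232), 0.15 (SE 0.247), 0.26 (SE 0.286) and 0.31 (SE 0.230). IFIH1 stood at -2.61 ± 0.81 (SD, n = 5) in treated and -1.15 ± 0.53 (SD, n = 5) in untreated piglets, a difference of -1.46 (SE 0.308) or 2.76-fold. RSAD2 stood at -4.59 ± 0.62 against -3.25 ± 0.87 (SD, n = 5), a difference of -1.34 (SE 0.373). IRF9 stood at -0.89 ± 0.47 against -0.12 ± 0.19 (SD, n = 5), a difference of -0.77 (SE 0.188). These 3 genes passed the threshold in this direction, as did 9.04% of all genes, and IRF9 had no overlap, as had 3.34%; the rule covers this comparison, and nothing is read from the counts. The median of the 7 was -0.12 beside -0.000998 over all genes, and turned to 0.11 in the deposited table and to 0.06 without BUCY treated piglet 1. For MX1 the small difference depended on the probe and the normalisation. Its other probes differed by -0.21 to -0.72. With median centring in place of loess, MX1 was at -0.77 and IRF9 at -1.28, and MX2, ISG15 and OASL turned to -0.33, -0.31 and -0.27.

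**Figure D2:**
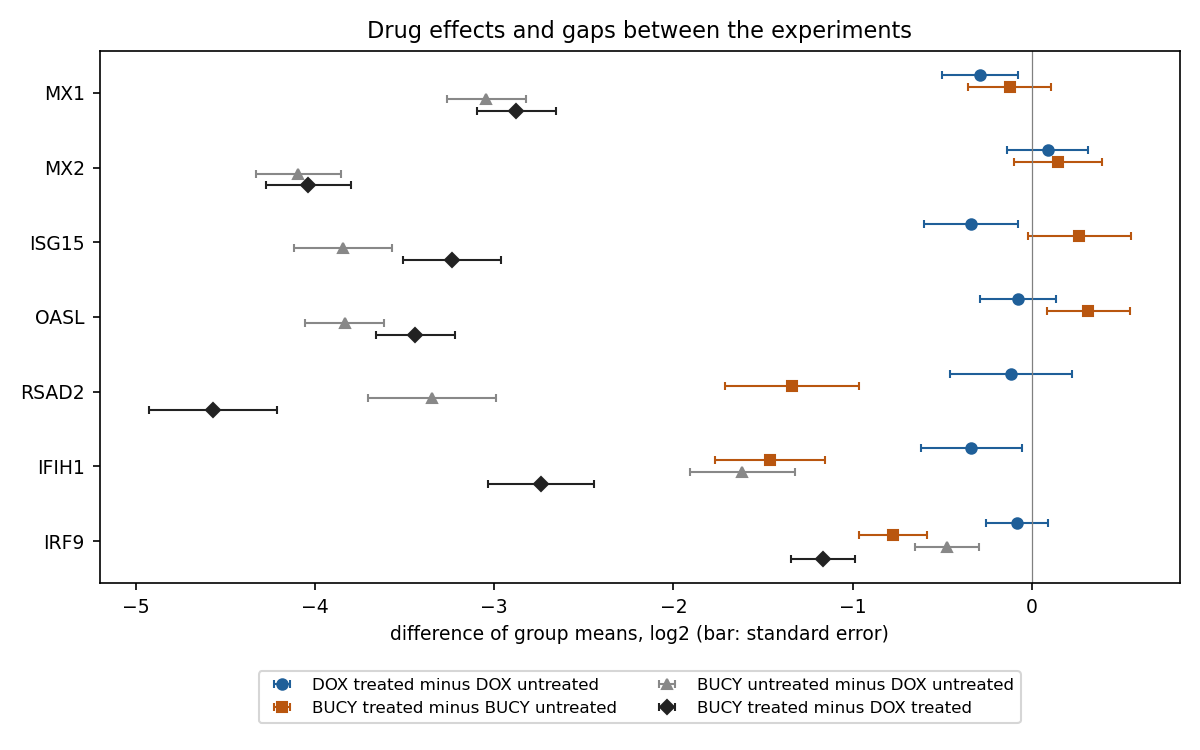
Differences of group means on the log2 scale (horizontal axis, bars are standard errors) are plotted for the 7 genes in 4 comparisons. The gaps between the experiments lie from -0.47 to -4.57, and the DOX differences lie between -0.34 and 0.09. With the brightest probe of each gene, as plotted, the BUCY differences of RSAD2, IFIH1 and IRF9 lie apart from those of the other genes. Other MX1 probes (not shown) gave BUCY differences down to -0.72.

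The 3 BUCY differences rest on few piglets. Without BUCY treated piglets 2 and 3, IFIH1 differed by -0.91 and IRF9 by -0.44, while RSAD2 differed by -1.23. Without those 2 piglets none of the 7 genes passed the threshold, beside 1126 of the 24766 genes tested. In a fit of the BUCY piglets alone none passed, beside 892, and with the slide as a fixed block 1 did, beside 2296. Without the suffixed arrays 3 passed, beside 1474, and RSAD2 differed by -2.50. On the first scan day RSAD2 differed by -2.50 with 2 treated and 3 untreated piglets. On the second it differed by -0.01 with 2 and 1, and on the third by -0.31 with 1 and 1. IFIH1 differed by -1.66, -0.92 and -1.05 on the 3 days, and IRF9 by -0.95, -0.60 and -0.41, so both kept their direction within each day. Of 14 T and NK cell markers 12 were called lower after BUCY, with per-piglet means of -1.48 to -1.003 against -0.26 to 0.44. Of 9 MHC class II genes 8 were called lower (-1.49 to -0.38 against 0.03 to 0.53), and of 6 markers of dividing cells 5 were called higher. The part of these cell types in the BUCY differences was not tested.

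**Figure D3:**
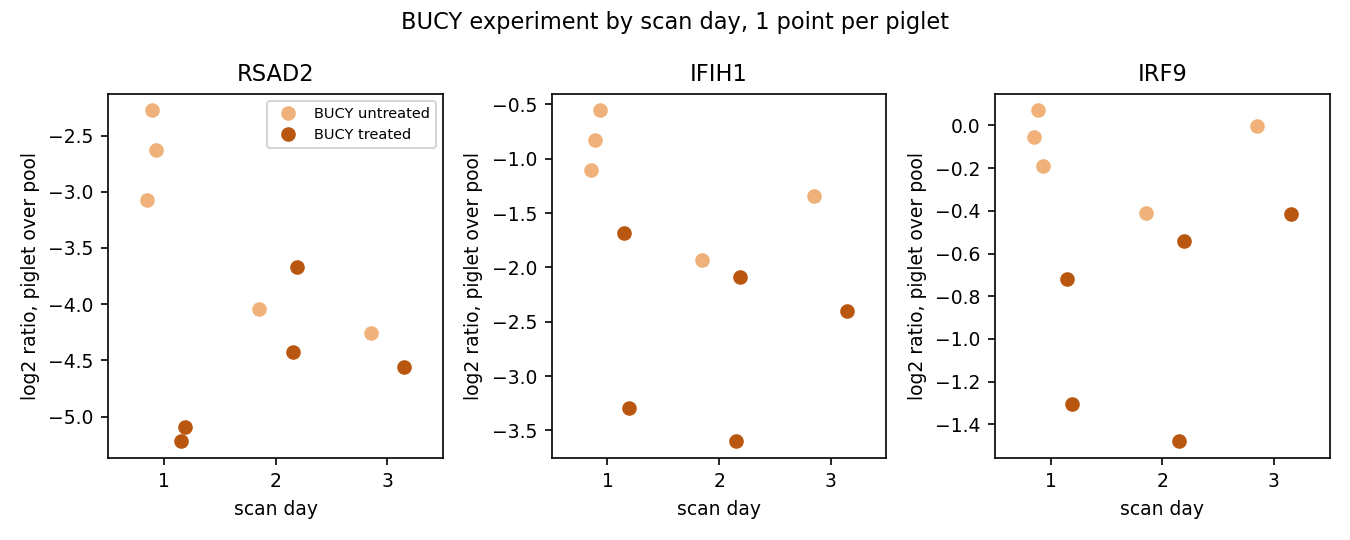
The log2 ratios of RSAD2, IFIH1 and IRF9 (vertical axes, each with its own scale) are plotted by scan day for the 10 piglets of the BUCY experiment, 1 point per piglet. The 3 untreated piglets of day 1 stand above the treated ones for each gene, and on days 2 and 3 the untreated piglets have RSAD2 at -4.04 and -4.25, among the treated values.

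The difference between the 2 drug effects, which equals the treated gap minus the untreated gap, was -1.22 (SE 0.506) for RSAD2, -1.12 (SE 0.416) for IFIH1 and -0.69 (SE 0.254) for IRF9. For MX1, MX2, OASL and ISG15 it was 0.17 (SE 0.314), 0.06 (SE 0.334), 0.39 (SE 0.311) and 0.61 (SE 0.387). None of the 7 passed the threshold in limma's fit, as 5.89% of all genes did. An unadjusted p under 0.05 was found for 3, and the share of all genes at that level was not counted. The rule used both drug effects, so nothing is read from these counts. Without the suffixed arrays 1 passed, beside 332 of the 24766 genes tested, and RSAD2 was at -2.24. Without BUCY treated piglet 1 also 1 passed, beside 2392. Without BUCY treated piglets 2 and 3 IFIH1 was at -0.57 and IRF9 at -0.36. MX1 turned to -0.31 with median centring in place of loess and to -0.23 without the suffixed arrays, and OASL to -0.0184 with median centring.

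Other probes and the other dye bear on whether the values belong to the genes or to single spots. The 5 probes of MX1 gave an untreated gap of -3.75 to -2.89 and a treated gap of -4.14 to -2.65. After BUCY the brightest MX1 probe differed by -0.12 and the others by -0.21 to -0.72. The 2 probes of RSAD2 gave an untreated gap of -3.35 and -3.00 and a BUCY difference of -1.34 and -0.95, and the 2 of IFIH1 gave -1.62 and -1.21 and then -1.46 and -0.67. The dimmer RSAD2 probe differed by -0.80 after DOX where the brighter gave -0.12, and IRF9, ISG15, OASL and MX2 had 1 probe each. In the Cy3 channel, where all arrays carried the same pool, the SD over the 22 arrays ran from 0.06 for MX2 to 0.33 for MX1, and was 1.49 for ISG15 with its dim spot. In Cy5 the SDs of these 3 genes were 2.15, 1.44 and 2.44. The pool did not read alike on all arrays. Without the dim spot the raw Cy3 signal of ISG15 was 55630 to 115617 on the DOX arrays and 161589 to 229711 on the BUCY arrays, without overlap. For MX1 the raw Cy3 signal was 48592 to 89528.5 on the DOX arrays and 79735.5 to 114546 on the BUCY arrays. In a fit of the normalised Cy3 signal alone none of the 7 genes was called in any of the 5 comparisons, and 0, 0, 0, 3 and 6 genes were called over all. That fit kept the dim ISG15 spot, which widened the spread of ISG15, so it cannot decide for that gene. The untreated gaps in normalised Cy3 ran from -0.36 for ISG15 to 0.61 for MX1 on the log2 scale. The part of the pool signal in the gaps was not tested. From Cy5 alone, the untreated gap was -4.11 for MX2, -2.84 for MX1 and -3.66 for OASL. That of ISG15 was -4.50 with the dim spot and -2.93 without it.

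The rest of the interferon pathway was followed through 8 lists, which hold 130 genes besides the 7, of which 55 were tested. These lists were drawn up with earlier results of the data known. In the untreated gap 30 of the 55 were called lower and 6 higher, beside 12.2% and 13.0% of all genes. In the treated gap 32 were called lower and 2 higher, beside 6.22% and 4.40%. The median difference of the 55 was -0.47 and -0.63 in the 2 gaps, smaller than that of the 7.

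Interferon-induced effectors act beside the 7 genes against viruses. Of 43 listed 9 were tested, and 8 were called lower in the untreated and 9 in the treated gap. IFIT3, which binds viral RNA together with IFIT1, was 9.88-fold lower in the untreated gap (log2 difference -3.31, SE 0.257, limma adjusted p = 1.47e-08). It stood at -2.88 ± 0.46 (SD, n = 5) against 0.42 ± 0.23 (SD, n = 6), and its treated gap was 14.0-fold. BST2, or tetherin, which holds budding virus on the cell surface, was 7.70-fold lower in the untreated and 9.63-fold lower in the treated gap. IFIT1 was 6.04- and 7.73-fold lower and IFI44 5.60- and 6.45-fold lower. USP18, the protease that removes ISG15 from proteins and dampens receptor signalling, was the only 1 of 6 genes of ISG15 conjugation and removal tested. It was 5.63-fold lower in the untreated gap (limma adjusted p = 1.73e-09) and 5.81-fold in the treated gap. All of these named genes had groups that did not overlap in either gap, and none passed the threshold in either drug effect.

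Among 10 tested genes of RNA and DNA sensing, of 20 listed, 5 were called lower and 1 higher in the untreated gap and 4 lower in the treated gap. DHX58, which encodes LGP2, a helicase that aids MDA5, was 6.10-fold lower in the untreated gap (log2 difference -2.61, SE 0.212, limma adjusted p = 2.71e-08) and 7.02-fold lower in the treated gap. TLR7, an endosomal receptor of single-stranded RNA, was 2.40- and 2.64-fold lower, and TLR3, a receptor of double-stranded RNA, 1.85- and 1.43-fold lower, the second no longer called with the slide fixed (adjusted p = 0.206). TLR8, a second receptor of single-stranded RNA, was 1.47-fold lower in the untreated gap, where 2 of 5 BUCY arrays were above background. It also fell 1.44-fold after DOX (limma adjusted p = 0.00842, lower in all 6 treated piglets than in any untreated piglet). That was the only call of the 55 genes for DOX, beside 0.480% of all genes, and with median centring its adjusted p was 0.0534.

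The interferons themselves were called in both directions. Of 13 listed 5 were tested, with 2 called lower and 2 higher in the untreated gap and 1 called lower in the treated gap. IFNB1, the beta interferon, was not well above background in any piglet of the BUCY experiment, and stood at least 1.30-fold lower in the untreated gap (limma adjusted p = 0.0258) and at a mean log2 ratio of -0.35 against 0.25 in the treated gap (limma adjusted p = 0.00405). The untreated call of IFNB1 ended in 6 of the other settings tried and without each of 4 arrays. Its treated call ended with the slide fixed (limma adjusted p = 0.285). IFNG, the gamma interferon of T and NK cells, was 1.38-fold lower in the untreated gap (limma adjusted p = 0.0400) and was above background on 4 of 6 DOX untreated and 2 of 5 BUCY untreated arrays. Its call ended in 12 of the other settings tried and without each of 5 arrays. IFNE, an interferon of epithelia, and IFN-DELTA-1, an interferon of the pig trophoblast, were 1.62- and 1.35-fold higher in the BUCY untreated piglets. The call of IFN-DELTA-1 ended in 3 of the other settings tried, with adjusted p from 0.0545 to 0.138.

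Receptors and signalling proteins divided in the same comparison. Of 12 listed 11 were tested, and 2 were called lower and 3 higher in the untreated gap, and 2 lower and 2 higher in the treated gap. STAT2 was 2.13-fold lower in the untreated gap (log2 difference -1.09, SE 0.194, limma adjusted p = 2.58e-04) and 3.35-fold lower in the treated gap, without overlap in either. IFNGR2, a chain of the gamma interferon receptor, was 1.67- and 1.96-fold higher. With median centring both calls of IFNGR2 ended, at adjusted p = 0.0625 and 0.150. Of 4 tested interferon regulatory factors, of 8 listed, 1 was called lower in the untreated and 3 in the treated gap. IRF7, which drives the alpha interferon genes, was 3.34- and 2.67-fold lower. IRF1 was 1.83-fold lower in the treated gap (limma adjusted p = 0.0130) and was not called in the untreated gap, and the test of the difference between the gaps missed the threshold (limma adjusted p = 0.209). The treated call of IRF1 ended in 4 of the other settings tried, among them the fit without the suffixed arrays (adjusted p = 0.186) and that without BUCY treated piglets 2 and 3 (0.178). Of 9 listed negative regulators 3 were tested, and USP18 was the 1 called.

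Of 23 listed targets of gamma interferon 13 were tested, and 11 were called lower in the untreated and 12 in the treated gap. TAP1, which carries peptides to MHC class I, was 3.69-fold lower in the untreated gap (log2 difference -1.88, SE 0.186, limma adjusted p = 3.26e-07) and 5.52-fold lower in the treated gap. PSMB9, a subunit of the immunoproteasome, was 3.17- and 2.52-fold lower, and PSME2, a proteasome activator, 3.19- and 1.77-fold lower, the last no longer called with the slide fixed (adjusted p = 0.0898). B2M, the light chain of MHC class I, was 2.26- and 6.59-fold lower.

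**Figure D4:**
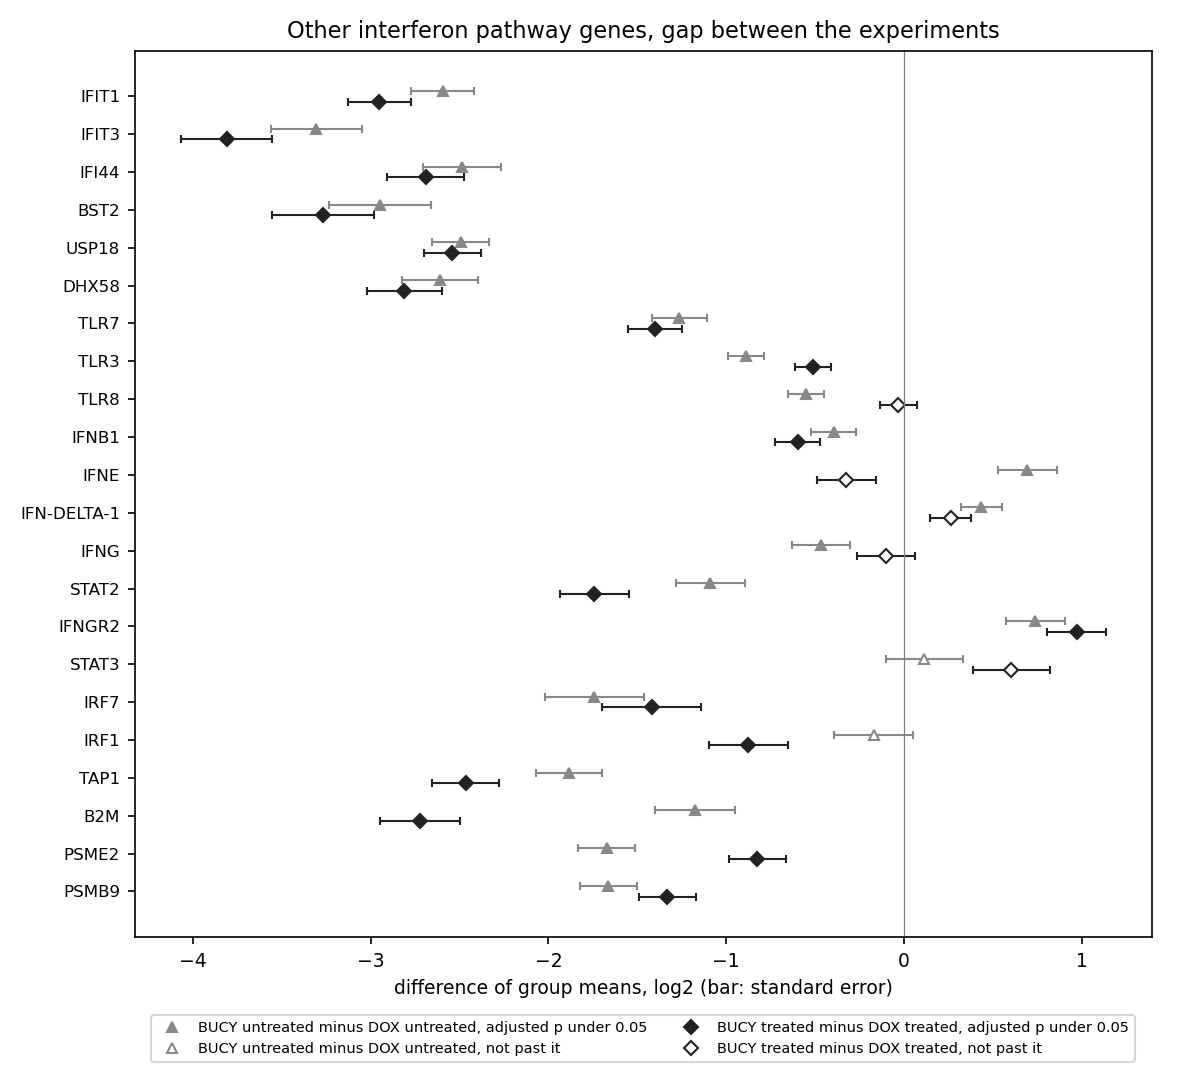
Gaps between the experiments on the log2 scale (horizontal axis, bars are standard errors) are plotted for the interferon pathway genes named in the text in untreated (triangles) and treated piglets (diamonds), filled where limma's adjusted p was under 0.05. The 4 effectors shown, USP18 and DHX58 lie below -2 in both gaps, while IFNE, IFN-DELTA-1 and IFNGR2 lie above 0 in untreated piglets.

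After BUCY 8 of the 55 genes were called lower and 1 higher, beside 9.04% and 8.24% of all genes. STAT2 fell 1.61-fold (log2 change -0.68, SE 0.203, limma adjusted p = 0.0246), with 5 of 5 treated piglets below the untreated mean. STAT3 rose 1.88-fold (limma adjusted p = 0.00921), and 5 of 5 treated piglets were above the untreated mean. B2M fell 2.93-fold (log2 change -1.55, SE 0.237, adjusted p = 2.55e-04), with no overlap, and IFNE fell 1.55-fold (adjusted p = 0.0172). Without BUCY treated piglets 2 and 3 only 2 of the 55 were called, and STAT2 (adjusted p = 0.338), STAT3 (0.157) and IFNE (0.208) were not among them. The difference between the drug effects passed the threshold for 5 of the 55, beside 5.89% of all genes. It was -1.55 for B2M, -1.02 for IFNE and -0.96 for IFI30, a lysosomal thiol reductase, and 0.85 for PSME2 and 0.52 for TLR8.

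Likeness to the 7 genes was measured as the Pearson correlation of each of 2645 other named genes with the mean of the 7 over the 22 arrays. The nearest were IFIT1 (r = 0.993), USP18 (0.992), DHX58 (0.991), IFIT3 (0.989) and IFI44 (0.985), and these points share the gap between the experiments. After the mean of each group was removed the nearest were DHX58 (r = 0.852), IFIT1 (0.805), USP18 (0.776), EIF2AK2 (0.773), the kinase PKR that halts translation on double-stranded RNA, and IFI44 (0.764). All 6 of these genes were already on the pathway lists, and these correlations are a description over genes of the same arrays.

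Whether the 7 genes vary together from piglet to piglet was asked of the deviations from each group's mean, which the choice of the genes did not use. Of 21 pairs, 13 were positively correlated. In a two-sided permutation test within groups with 100000 draws, 5 passed an adjusted p of 0.05 over the 21 pairs. The share of pairs of other genes that would pass was not counted. MX1 and MX2 had r = 0.85 (rho 0.73, permutation p = 4.00e-04, adjusted 0.00350) and MX2 and ISG15 r = 0.82 (rho 0.68, permutation p = 5.00e-04, adjusted 0.00350). ISG15 and OASL had r = 0.84 (rho 0.71, permutation p = 1.40e-04, adjusted 0.00294). For MX1 and ISG15 r was 0.80 (rho 0.50, permutation p = 0.00246, adjusted 0.0129), and for IFIH1 and IRF9 it was 0.64 (rho 0.59, permutation p = 0.0107, adjusted 0.0451). With Spearman's rho the first 3 of these pairs passed (adjusted 0.00798 for each). The 5 pairs join MX1, MX2, ISG15 and OASL, and separately IFIH1 and IRF9, whose 8 correlations with those 4 genes ran from -0.44 to -0.06. Those 8 had opposite signs in the experiments, at 0.18 to 0.44 in the DOX and -0.84 to -0.32 in the BUCY piglets. With the slide removed the 8 ran from -0.16 to 0.10, so the negative relation was not kept within slides.

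These correlations lean on the outermost piglets. Without the 2 farthest from the median, BUCY treated piglet 1 and DOX treated piglet 6 for the first 4 pairs, r was 0.69 for MX1 and MX2, 0.62 for MX2 and ISG15, 0.68 for ISG15 and OASL and 0.50 for MX1 and ISG15. For IFIH1 and IRF9 r was 0.56 without BUCY treated piglets 1 and 3. Within the 12 piglets of the DOX experiment these 5 pairs had r of 0.90, 0.87, 0.95, 0.74 and 0.39, in the same order, and within the 10 of the BUCY experiment 0.81, 0.79, 0.75, 0.89 and 0.78. In the DOX experiment without treated piglet 6, r was 0.57, 0.50, 0.86, 0.14 and 0.38, so there the relation of MX1 and ISG15 rested on that piglet. Without DOX treated piglet 6 in the full set, 3 of the 21 pairs passed.

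**Figure D5:**
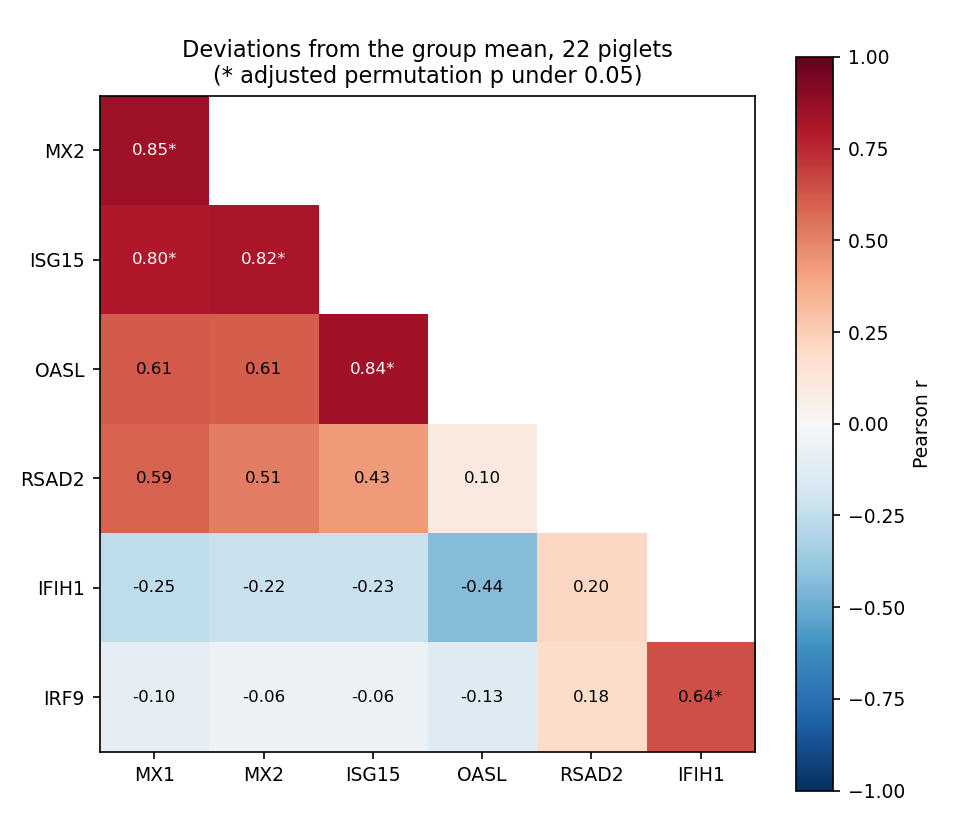
Pearson r of the deviations from the group mean over 22 piglets is shown for the 21 pairs of the 7 genes, with a star where the adjusted permutation p was under 0.05. The 6 pairs among MX1, MX2, ISG15 and OASL have r from 0.61 to 0.85. The pairs of those 4 genes with IFIH1 or IRF9 have r below 0 over both experiments, though above 0 in the DOX experiment alone. With the slide removed (not shown) the latter run from -0.16 to 0.10.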

How the data were processed

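The small intestine of 22 piglets was profiled with 22 two-colour pig arrays from Agilent, which lay on 7 slides and were scanned over 3 days. Per the labels, Cy5 held the piglet and Cy3 a pool of all samples on every array. The authors deposited scanner files with median spot and background intensity in both colours, made with Agilent Feature Extraction 10.7.3.1 per the file headers. Agilent's own log10 ratio and other columns of quality flags are in the same files, per the file headers. The authors also deposited a table of log2 ratios; the submitters' processing notes name limma, and its settings are not stated there. The medians of its arrays run from 0.00 to 0.02, and over all probes each array correlated at r from 0.974 to 0.998 with the values used here, so its direction is the same.

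Median intensities were corrected by normexp (offset 50) and normalised by loess within arrays, with limma 3.58.1 in R 4.3.3. The rule that chose the genes names the deposited log2 table, which was kept as an alternative. Outlier spots (3 to 52 per array) were dropped, and no value of the 7 genes was missing. Probes were named by accession from the RefSeq gene table of Sscrofa11.1, which gave a symbol to 6700 of 43603 (15.4%). The brightest probe stood for a gene, and genes above background in Cy5 on at least 5 arrays were kept, leaving 24766 genes, 2652 of them with a symbol. A fold is given as a lower bound, against the dimmest signals above background, where no array of the lower group measured the gene.

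A single limma model with 4 group means was fitted (18 residual degrees of freedom and 3.38 from the prior), with two-sided p-values adjusted by Benjamini-Hochberg over all genes and called at 0.05. Replicate numbers only name the piglets. The 7 genes and all lists were chosen with earlier results of these data known. From each list the called genes with the smallest p are named, 4 at most, with the 5 nearest by correlation, except that some are not reported here; IFI30 and the genes of the closing observations were named after their values were seen. Correlations were computed with numpy 2.4.6 in Python 3.11.15. The fit and the correlations were tested on simulated data. Alternatives changed the background correction, normalisation, filter, choice of probe, blocks and arrays. The fit of Cy3 was added after the data were seen.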

Additional observations from a re-analysis of the deposited data

Results flagged for a closer look

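DOX treated piglet 6 stood far below the other 5 piglets of its group for 4 of the 7 genes, by the distance to its nearest neighbour as a share of the group's range. Its log2 ratios were -0.50 for MX1, -0.34 for MX2, -0.58 for ISG15 and -0.34 for OASL, where the next lowest piglets had 0.41, 0.73, 0.67 and 0.47. Of 28 groups of values examined 4 were marked in this way, all on that array, and chance marks about 1 in 20. The 4 marks come from 1 piglet and from genes whose values were correlated, so they are not independent of one another.

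The test of the difference between the drug effects passed the threshold for 5 of the 55 other interferon pathway genes tested, beside 5.89% of all genes. On the log2 scale the BUCY effect minus the DOX effect was -1.55 for B2M (SE 0.321, limma adjusted p = 0.00680), -1.02 for IFNE (SE 0.236, limma adjusted p = 0.0132) and -0.96 for IFI30 (SE 0.218, limma adjusted p = 0.0116). It was 0.85 for PSME2 (SE 0.227, limma adjusted p = 0.0303) and 0.52 for TLR8 (SE 0.145, limma adjusted p = 0.0369). Over the alternatives the adjusted p reached 0.126 for B2M, 0.156 for IFNE, 0.700 for PSME2 and 0.317 for TLR8. IFI30 was not followed singly over the alternatives. With median centring no gene of the pathway lists was called, IFI30 included. TLR8 missed the threshold without each of 11 single arrays, and PSME2 without each of 5.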

How the results depend on the processing

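Each of the 7 genes stayed lower in the BUCY experiment in both gaps under every setting tried, while small differences could turn sign, as OASL did between the drug effects, to -0.0184 with median centring. The median of the 7 in the untreated gap was -3.72 with median centring and -2.90 without the suffixed arrays. In the treated gap it was -4.02 with median centring, -2.86 in the deposited table, -2.79 from Cy5 alone, -3.56 without the suffixed arrays and -3.54 without BUCY treated piglets 2 and 3. Leaving out single arrays gave -3.59 to -3.10 and -3.49 to -3.03 for these medians. Median centring shifted the median BUCY effect of all genes to -0.12, and that of the 7 to -0.77, which was -0.46 with the mean over all probes, -0.50 without the suffixed arrays and -0.40 without BUCY treated piglets 2 and 3. In the deposited table the BUCY median of the 7 was 0.11. Single arrays left out gave -0.27 to 0.06 for BUCY, -0.26 to -0.04 for DOX and -0.15 to 0.21 for the difference between the drug effects. That difference had a median of -0.31 with median centring and -0.24 both without the suffixed arrays and without BUCY treated piglets 2 and 3.

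Of the other pathway genes, the BUCY call count of 9 was 16 with median centring and with Agilent's log ratios, 14 with the slide as a random block, 5 with it fixed, 5 without the suffixed arrays, 2 without BUCY treated piglets 2 and 3 and 1 in a fit of the 2 BUCY groups. The DOX count of 1 was 0 with median centring and with probes above background on all arrays, and 2 with array weights. The 5 calls between the drug effects were 0 with median centring, 3 with Agilent's log ratios, and 2 from Cy5 alone, without the suffixed arrays and without BUCY treated piglets 2 and 3. With single arrays left out the counts were 6 to 15 for BUCY, 1 for DOX, 3 to 8 between the drug effects, 31 to 38 for the untreated and 31 to 39 for the treated gap. The BUCY count was 15 without untreated piglet 4. Between the drug effects 8 were called without BUCY treated piglet 1, and 3 without DOX treated piglet 2 or 6 or BUCY untreated piglet 3.

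The 5 correlated pairs became 18 with median centring, 11 with the slide fixed, 10 with scaling between arrays, 3 with Spearman's rho, 3 without the suffixed arrays and 1 from Cy5 alone, and 3 to 7 with single arrays left out, 3 of them without BUCY treated piglet 1 or 3 or DOX treated piglet 6. Over all genes the calls numbered 89 with median centring to 1263 with array weights for DOX (210 as reported), and 892 in a fit of the 2 BUCY groups to 6290 without BUCY treated piglet 1 for BUCY (4280). They numbered 104 with median centring to 2392 without BUCY treated piglet 1 between the drug effects (1458), 3852 with median centring to 7672 with array weights in the untreated gap (6241), and 958 with the slide fixed to 4544 without BUCY treated piglet 5 in the treated gap (2629). The causes were not tested. Aquantile leaves log ratios unchanged by construction, and the random slide block was not run for correlations. No paired analysis was possible because the replicate numbers only follow the order of the arrays and no label pairs piglets across groups. IFNB1, IFNG, TLR8 and CXCL11 lay near background in the BUCY piglets, which limits their folds. Among the 7 genes, RSAD2, IFIH1 and MX2 were dim in Cy5 in BUCY treated piglet 3, which limits their folds too.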

Other observations

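Gamma interferon's chemokines were not among the genes named by rule and were picked after their values were seen. CXCL10, which draws T cells to inflamed tissue, was 5.41-fold lower in the BUCY untreated than in the DOX untreated piglets (log2 difference -2.43, SE 0.549, limma adjusted p = 0.00226) and 17.4-fold lower in the treated piglets. Its BUCY untreated values ran from -3.41 to -0.37, and 1 of them overlapped with the DOX piglets. CXCL9, a second ligand of the same receptor, was 4.19- and 6.38-fold lower in the 2 gaps. CXCL11, the third ligand, was 2.24-fold lower in untreated piglets, where 3 of 5 BUCY arrays were above background, and at least 2.09-fold lower in treated ones, where none of 5 BUCY arrays was above background.

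GBP1 and GBP2, guanylate-binding proteins that attack intracellular microbes, were 2.31- and 3.03-fold lower in the BUCY untreated piglets and 3.82- and 5.396-fold lower in the BUCY treated ones. OAS2, which makes the oligoadenylates that activate RNase L, was 2.79- and 4.86-fold lower and also fell 1.79-fold after BUCY (limma adjusted p = 0.0245, with 5 of 5 treated piglets below the untreated mean). ZBP1, a sensor of Z-form nucleic acid, was 2.44- and 2.55-fold lower, with groups that did not overlap in either gap.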
